A study of Mus musculus with 48 samples.

Results

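The interleukin-1 family members and decoys described here are 6 genes, Il1b, Il1a, Il1rn, Il1r2, Il1f9 and Il18, among 24537 gene rows of a 3′ RNA count table, and all 6 have a row. They were chosen by gene symbol, with earlier results of these data known. The RNA came from immune cells sorted out of tumours of mice given AOM and DSS, a carcinogen and an agent that damages the colon lining, and taken at day 85. In all, 4 sorting gates were labelled, Ly6Clo MHCIIhi, Ly6Clo MHCIIlo, Ly6Chi MHCIIhi and Ly6Chi MHCIIlo, by the monocyte surface protein Ly6C and by MHC class II. In each gate, mice labelled ko carry a deletion of the chemokine gene Ccl17 and mice labelled ctrl do not, and both had the same AOM and DSS treatment. The allele, strain, sex and age were not given in the sources used here, nor was which ko mice shared cages with controls, so housing could not enter any comparison. After summing the libraries of a replicate there were 8 ko and 8 ctrl replicates of Ly6Clo MHCIIhi, 4 and 4 of Ly6Clo MHCIIlo, 4 and 3 of Ly6Chi MHCIIhi, and 4 and 4 of Ly6Chi MHCIIlo. The labels do not state that each replicate was another animal, and the p-values cover only how far these samples spread, which may be technical.

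IL-1α and IL-1β, the products of Il1a and Il1b, bind the same receptor, which signals through MyD88 and IRAK kinases to NF-κB and so raises genes such as Cxcl2 and Ptgs2. Il1rn encodes the receptor antagonist, which occupies that receptor without signalling, and Il1r2 encodes a decoy receptor that binds IL-1 and does not signal. Il1f9 encodes IL-36γ, a cytokine with a receptor of its own, and Il18 encodes a cytokine that, like IL-1β, is made as a precursor and cut by caspase-1. In the inflamed colon, monocytes, macrophages and neutrophils are known sources of IL-1β, and epithelial cells of IL-18.

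Il1f9, Il1rn, Il1a and Il1b lie on mouse chromosome 2 (GRCm38, GENCODE release M21). Il1f9 (24186476 to 24193568, plus strand) and Il1rn (24336853 to 24351494, plus strand) are 143284 bases apart, and Il1a (129299610 to 129309972, minus strand) and Il1b (129364570 to 129371139, minus strand) are 54597 bases apart. Il1r2 lies on chromosome 1 (40074079 to 40125231, plus strand) and Il18 on chromosome 9 (50554827 to 50581840, plus strand). Il1b overlaps the antisense gene Il1bos, which had 47 counts in the table against 70905 for Il1b, and Il18 overlaps Bco2 on the other strand, which had 32 counts against 322. Strand use in the counting is not given, so reads of such overlaps cannot be told apart.

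The sequences before the starts of the 3 members that varied together, Il1b, Il1a and Il1rn, are shown with that of Il1r2, which varied differently. Each is the 250 bases 5′ of a start in RefSeq (GRCm38.p6), written along the gene's strand at chr2:129371140-129371389, chr2:129309973-129310222, chr2:24336610-24336859 and chr1:40085843-40086092. Capitals mark matches to the motifs searched.
Il1b: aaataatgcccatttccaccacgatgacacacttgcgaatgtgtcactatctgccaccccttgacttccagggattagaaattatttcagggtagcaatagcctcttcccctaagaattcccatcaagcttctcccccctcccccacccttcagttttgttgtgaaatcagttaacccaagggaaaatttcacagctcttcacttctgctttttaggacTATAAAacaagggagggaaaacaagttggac
Il1a: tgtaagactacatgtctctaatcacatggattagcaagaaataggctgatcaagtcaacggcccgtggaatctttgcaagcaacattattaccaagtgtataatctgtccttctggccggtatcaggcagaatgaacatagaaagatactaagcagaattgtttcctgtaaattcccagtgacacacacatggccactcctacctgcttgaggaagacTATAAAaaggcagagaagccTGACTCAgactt
Il1rn: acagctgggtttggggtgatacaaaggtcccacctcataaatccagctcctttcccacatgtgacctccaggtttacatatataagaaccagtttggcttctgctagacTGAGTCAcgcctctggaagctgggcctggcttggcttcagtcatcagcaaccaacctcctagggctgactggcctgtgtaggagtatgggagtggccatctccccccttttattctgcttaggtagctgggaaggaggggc
Il1r2: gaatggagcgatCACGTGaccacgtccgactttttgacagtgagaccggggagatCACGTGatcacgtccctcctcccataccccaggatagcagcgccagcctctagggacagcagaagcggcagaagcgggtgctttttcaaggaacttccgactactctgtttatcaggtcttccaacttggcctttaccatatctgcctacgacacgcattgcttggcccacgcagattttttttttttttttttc
The motifs were TATAAA on the gene's strand, and TGANTCA (AP-1), TTGCNNAA (C/EBP), CACGTG (E-box) and the NF-κB motif on both strands, and no capitals of one motif overlap another. TATAAA began 31 bases before the Il1b start and 32 bases before the Il1a start, and 8.32% of 32851 windows of 300 bases (250 before to 50 after a start) hold it. TGANTCA began 12 bases before the Il1a start and 141 bases before this Il1rn start, and 7.81% of windows hold it. CACGTG was found at 2 places before this Il1r2 start, 238 and 195 bases from it, where 7.15% of windows hold it once or more and 0.594% hold 2 or more. This RefSeq start lies inside the GENCODE interval of Il1r2, which begins at 40074079, so the sequence does not precede that interval. Il1rn has 2 further RefSeq starts, whose windows overlap and hold the NF-κB motif at 1 shared place, 30 bases after one start and 51 bases before the other (1.63% of windows hold it), and 3′ counts cannot say which start was used. TTGCNNAA, held by 10.8% of windows, was in none of the members' windows. The other motif letters were not in these windows, nor any of the 5 in those of Il1f9 and Il18, which says nothing about the factors.

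Replicate totals ranged from 34362 to 891461 counts, and levels are given as CPM, the count scaled by the TMM-adjusted library total. Ccl17 itself had 15 counts in 8 ko replicates and 510 counts in 8 ctrl replicates of Ly6Clo MHCIIhi, and 1 to 14 counts in every other group, too few there to check the labels. The deleted stretch is not given, and a 3′ count outside it would check nothing. Ly6c2 averaged 25.8, 42.6, 529 and 1212 CPM in Ly6Clo MHCIIhi, Ly6Clo MHCIIlo, Ly6Chi MHCIIhi and Ly6Chi MHCIIlo, in the order the Ly6C labels give. Summed macrophage markers (8 genes) ran from 18720 to 48620 CPM in the Ly6Clo gates and from 3851 to 13650 CPM in the Ly6Chi gates. Summed neutrophil markers (13 of 14 listed genes had a row, and all 13 had counts in every gate) ran from 5622 to 29950 CPM in Ly6Clo MHCIIlo and from 6144 to 19990 CPM in Ly6Chi MHCIIlo. They stayed at 382 to 1844 CPM in Ly6Clo MHCIIhi and at 546 to 2031 CPM in 6 of 7 Ly6Chi MHCIIhi replicates. The remaining one, the ctrl replicate 1 of Ly6Chi MHCIIhi, stood apart: neutrophil markers summed to 78900 CPM and haemoglobin genes to 298100 CPM, against at most 1661 CPM of haemoglobin in the other 6. Values without it are given beside the members' tested differences that involve Ly6Chi MHCIIhi. In Ly6Clo MHCIIhi the replicates numbered 3 of both genotypes stood apart in Il1b and Il1a, and values without one or both are given beside several results of that gate.

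**Figure D1:**
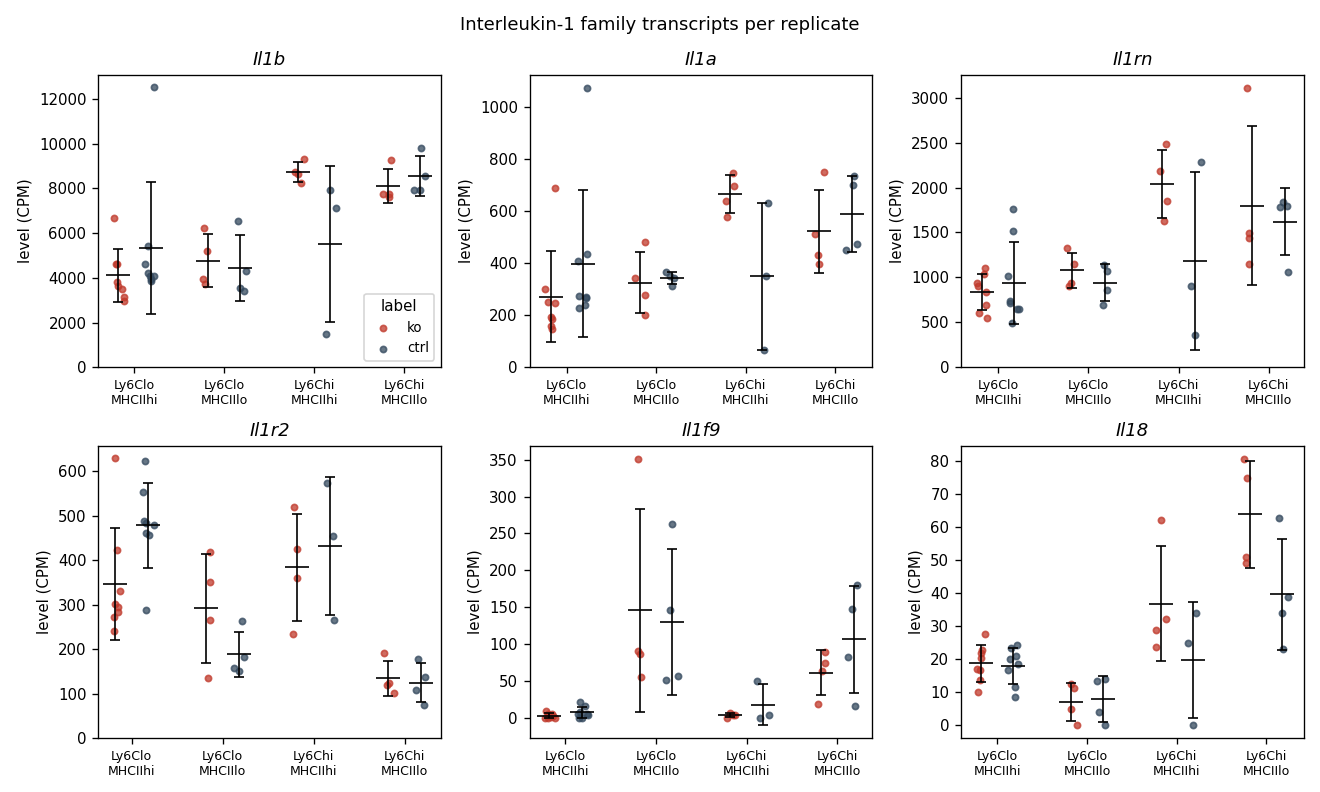
Level of each member in every replicate (CPM, linear axis), by gate, with ko left of ctrl; the long tick and bar are the mean and SD. Il1b, Il1a and Il1rn average higher in the Ly6Chi gates, Il1f9 in the MHCIIlo gates, and Il1r2 is lowest in Ly6Chi MHCIIlo; Il1b is at 12528 CPM in 1 ctrl replicate of Ly6Clo MHCIIhi.

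The gates were compared in pairs, with genotype in the model, over all genes that passed the count filter. In Ly6Clo MHCIIhi against Ly6Chi MHCIIlo, 1 of 6 tested members was higher and 5 were lower at an adjusted p of 0.05, where 42.3% of 5702 genes passed, 21.3% higher and 21% lower. In Ly6Clo MHCIIlo against Ly6Chi MHCIIlo, 1 of 6 was higher and 4 were lower, where 37.4% of 4336 genes passed, 19.3% higher and 18.2% lower. Of 5 members tested in Ly6Clo MHCIIhi against Ly6Clo MHCIIlo, 1 was higher and 1 lower (25.5% of 4817 genes passed, 11.9% higher and 13.6% lower). In Ly6Clo MHCIIlo against Ly6Chi MHCIIhi 1 of 5 was higher and 1 lower (23.4% of 4175 genes, 11.6% higher and 11.8% lower). Of 4 members tested in Ly6Clo MHCIIhi against Ly6Chi MHCIIhi, 0 were higher and 1 lower (15.8% of 5541 genes, 8.3% higher and 7.45% lower). In Ly6Chi MHCIIhi against Ly6Chi MHCIIlo 1 of 6 was higher and 1 lower (2.86% of 4756 genes, 1.32% higher and 1.53% lower). The members' shares are read against these, and 4 to 6 members make a coarse share. Members not tested in a pair, Il1f9 or Il18, were under the count filter there. These are bulk samples, so fewer cells of a type and less RNA per cell cannot be told apart.

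Il1b was the most abundant member on the CPM scale, which for 3′ counts has no length term, and ranked 14th among all rows by mean CPM in Ly6Clo MHCIIhi, 11th in Ly6Clo MHCIIlo, 9th in Ly6Chi MHCIIhi and 7th in Ly6Chi MHCIIlo. Its lowest, median and highest levels were 2976, 4098 and 12528 CPM over 16 Ly6Clo MHCIIhi replicates, and 3398, 4123 and 6566 CPM over 8 Ly6Clo MHCIIlo replicates. They were 1512, 8247 and 9295 CPM over 7 Ly6Chi MHCIIhi replicates, and 7636, 7929 and 9790 CPM over 8 Ly6Chi MHCIIlo replicates. All 8 Ly6Clo MHCIIlo replicates lay below all 8 Ly6Chi MHCIIlo replicates, and 15 of 16 Ly6Clo MHCIIhi replicates lay below the Ly6Chi MHCIIlo mean. How many of all genes separate a pair of gates in this way was not counted, for Il1b or the other members.

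Il1b fell in Ly6Clo MHCIIlo relative to Ly6Chi MHCIIlo, to 4611 ± 1240 CPM against 8328 ± 803 CPM (SD, n = 8 each), a log2 fold change of -0.75 (SE 0.135, adjusted p = 0.000111, edgeR quasi-likelihood test with Benjamini-Hochberg adjustment over all genes). It also fell in Ly6Clo MHCIIhi relative to Ly6Chi MHCIIlo, at 4738 ± 2260 CPM (n = 16), by 0.81 on the log2 scale (SE 0.164, adjusted p = 0.000188), and by 1.04 without both replicates numbered 3 of Ly6Clo MHCIIhi (adjusted p = 1.99e-11). Against Ly6Chi MHCIIhi, which averaged 7356 ± 2665 CPM (n = 7), the log2 differences were -0.65 in Ly6Clo MHCIIhi (adjusted p = 0.0775) and -0.59 in Ly6Clo MHCIIlo (adjusted p = 0.0997), and neither passed. Without ctrl replicate 1 of Ly6Chi MHCIIhi, the library rich in haemoglobin, both passed, at -0.86 (adjusted p = 0.00198) and -0.79 (adjusted p = 0.000167). The first also passed without the ctrl replicate 3 of Ly6Clo MHCIIhi (-0.77, adjusted p = 0.0053), and the second without the ctrl replicate 2 of Ly6Clo MHCIIlo (-0.70, adjusted p = 0.0454). The first passed as well with no count filter (-0.57, adjusted p = 0.0296) and with each library as a sample in one fit (-0.59, adjusted p = 0.0157). That last fit took both libraries of a replicate as separate samples. The first did not pass in 6 of 10 other settings and in 21 of 23 fits without 1 replicate. The second did not pass in 8 of 8 other settings and in 13 of 15 such fits. The steps within one level of Ly6C were -0.012 (95% interval -0.403 to 0.38) for Ly6Clo MHCIIhi against Ly6Clo MHCIIlo, and -0.18 (-0.68 to 0.325) for Ly6Chi MHCIIhi against Ly6Chi MHCIIlo. Between the Ly6Chi gates the value was 0.026 without ctrl replicate 1 of Ly6Chi MHCIIhi (adjusted p = 0.946).

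Il1a, the other agonist, had a lower CPM than Il1b in every gate. Its lowest, median and highest levels were 149, 259 and 1073 CPM in Ly6Clo MHCIIhi, 201, 343 and 480 CPM in Ly6Clo MHCIIlo, 66.5, 632 and 748 CPM in Ly6Chi MHCIIhi, and 397, 493.5 and 751 CPM in Ly6Chi MHCIIlo. The lower Ly6Clo values overlapped the Ly6Chi ones in each pair of gates. It fell by 0.62 on the log2 scale in Ly6Clo MHCIIlo relative to Ly6Chi MHCIIlo (SE 0.168, adjusted p = 0.00493), with 8 of 8 replicates below the Ly6Chi MHCIIlo mean. That call was lost in a fit of all 8 groups together (-0.71, adjusted p = 0.0601). In Ly6Clo MHCIIhi it fell by 0.77 relative to Ly6Chi MHCIIlo (SE 0.251, adjusted p = 0.0139), with 14 of 16 replicates below that mean, and by 1.16 without both replicates numbered 3 (adjusted p = 1.74e-07). Against Ly6Chi MHCIIhi it did not pass, at -0.81 in Ly6Clo MHCIIhi (adjusted p = 0.0925) and -0.63 in Ly6Clo MHCIIlo (adjusted p = 0.0842). Without the Ly6Chi MHCIIhi ctrl replicate 1 these were -1.03 (adjusted p = 0.0158) and -0.85 (adjusted p = 0.000509). The first also passed without replicate 3 of ctrl (-0.97, adjusted p = 0.00934) or of ko (-1.03, adjusted p = 0.0251) in Ly6Clo MHCIIhi. It passed as well with no count filter (-0.73, adjusted p = 0.00101) and with each library as a sample (-0.76, adjusted p = 0.0332). The first did not pass in 6 of 10 other settings and in 20 of 23 fits without 1 replicate. The second did not pass in 8 of 8 other settings and in 14 of 15 such fits. With both replicates numbered 3 left out, Il1a was 0.47 lower on the log2 scale in Ly6Clo MHCIIhi than in Ly6Clo MHCIIlo (log2 fold change -0.47, adjusted p = 0.0261), where the full data gave -0.10 (adjusted p = 0.827).

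Il1rn, the receptor antagonist, was lower in the Ly6Clo gates as the agonists were. Its lowest, median and highest levels were 488, 788 and 1756 CPM in Ly6Clo MHCIIhi and 694, 1004 and 1326 CPM in Ly6Clo MHCIIlo. They were 366, 1855 and 2486 CPM in Ly6Chi MHCIIhi and 1063, 1638 and 3107 CPM in Ly6Chi MHCIIlo, so each pair of gates overlapped. It fell in Ly6Clo MHCIIhi by 0.93 on the log2 scale relative to Ly6Chi MHCIIlo (SE 0.192, adjusted p = 0.000245) and by 0.90 relative to Ly6Chi MHCIIhi (SE 0.25, adjusted p = 0.0125). Without both replicates numbered 3 these log2 fold changes were -1.05 and -1.01, and without the Ly6Chi MHCIIhi ctrl replicate 1 the second was -1.11 (adjusted p = 0.000372). The call against Ly6Chi MHCIIhi was lost without the Ly6Chi MHCIIhi ctrl replicate 4 (-0.75, adjusted p = 0.0828) and with replicate number as a block (-1.02, adjusted p = 0.0955). In Ly6Clo MHCIIlo it fell by 0.65 relative to Ly6Chi MHCIIlo (SE 0.174, adjusted p = 0.00479). Against Ly6Chi MHCIIhi the value was -0.64 (adjusted p = 0.0657), and -0.84 without the Ly6Chi MHCIIhi ctrl replicate 1 (adjusted p = 0.000429), and DESeq2 gave -0.61 (adjusted p = 0.0471). It did not pass in the remaining 7 of 8 other settings or in 14 of 15 fits without 1 replicate. Without the Ly6Chi MHCIIhi ctrl replicate 1, Ly6Chi MHCIIhi against Ly6Chi MHCIIlo gave 0.15 for Il1rn (adjusted p = 0.812) and 0.19 for Il1a (adjusted p = 0.67).

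Ratios of member counts to Il1b counts were described in each gate and not tested. Il1rn had 19.3 ± 4.47 counts per 100 Il1b counts in Ly6Clo MHCIIhi, 22.7 ± 4.75 in Ly6Clo MHCIIlo, 22.7 ± 5.79 in Ly6Chi MHCIIhi and 20.4 ± 6.44 in Ly6Chi MHCIIlo (SD over replicates). Il1a had 6.7 ± 1.7, 7.6 ± 2.2, 6.8 ± 1.6 and 6.6 ± 1.2 counts per 100 Il1b counts in the same gates. These means differ by less than 1 SD over replicates, which does not show that the ratios were constant. For Il1r2 the means lay farther apart, at 9.39 ± 3.10, 5.17 ± 1.60, 7.01 ± 4.97 and 1.58 ± 0.537 counts per 100 Il1b counts.

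Il1r2, the decoy receptor, was lowest in Ly6Chi MHCIIlo. Its lowest, median and highest levels were 240, 440 and 630 CPM in Ly6Clo MHCIIhi, 135, 223 and 419 CPM in Ly6Clo MHCIIlo, 233, 426 and 575 CPM in Ly6Chi MHCIIhi, and 74.0, 122 and 192 CPM in Ly6Chi MHCIIlo. Every replicate of both MHCIIhi gates lay above every Ly6Chi MHCIIlo replicate, while the Ly6Clo MHCIIlo values overlapped those of each other gate. As for Il1b, the share of all genes that separate so was not counted. Il1r2 rose in Ly6Chi MHCIIhi relative to Ly6Chi MHCIIlo by 1.69 on the log2 scale, a 3.22-fold difference (SE 0.219, adjusted p = 0.000152), the fifth smallest p of 4756 genes. Without the Ly6Chi MHCIIhi ctrl replicate 1 that log2 fold change was 1.75 (adjusted p = 1.48e-05). In Ly6Clo MHCIIhi it rose by 1.67 relative to Ly6Chi MHCIIlo (SE 0.184, adjusted p = 1.06e-08) and by 0.73 relative to Ly6Clo MHCIIlo (SE 0.208, adjusted p = 0.01), the second being 0.65 without both replicates numbered 3 (adjusted p = 0.0166). In Ly6Clo MHCIIlo it rose by 0.97 relative to Ly6Chi MHCIIlo (SE 0.222, adjusted p = 0.00129).

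Between the MHCIIhi gates Il1r2 had a log2 difference of -0.029 (95% interval -0.395 to 0.336) for Ly6Clo MHCIIhi against Ly6Chi MHCIIhi. It was lower in Ly6Clo MHCIIlo than in Ly6Chi MHCIIhi (-0.72, SE 0.245, adjusted p = 0.0379). Without the Ly6Chi MHCIIhi ctrl replicate 1 these values were -0.12 (adjusted p = 0.724) and -0.75 (adjusted p = 0.0171). Leaving out any 1 of 9 of the 15 replicates took that last call over the threshold. They were ctrl replicates 3 and 4 and ko replicates 2 and 4 of Ly6Chi MHCIIhi, and ctrl replicates 1, 3 and 4 and ko replicates 1 and 4 of Ly6Clo MHCIIlo, with adjusted p of 0.0514 to 0.113.

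**Figure D2:**
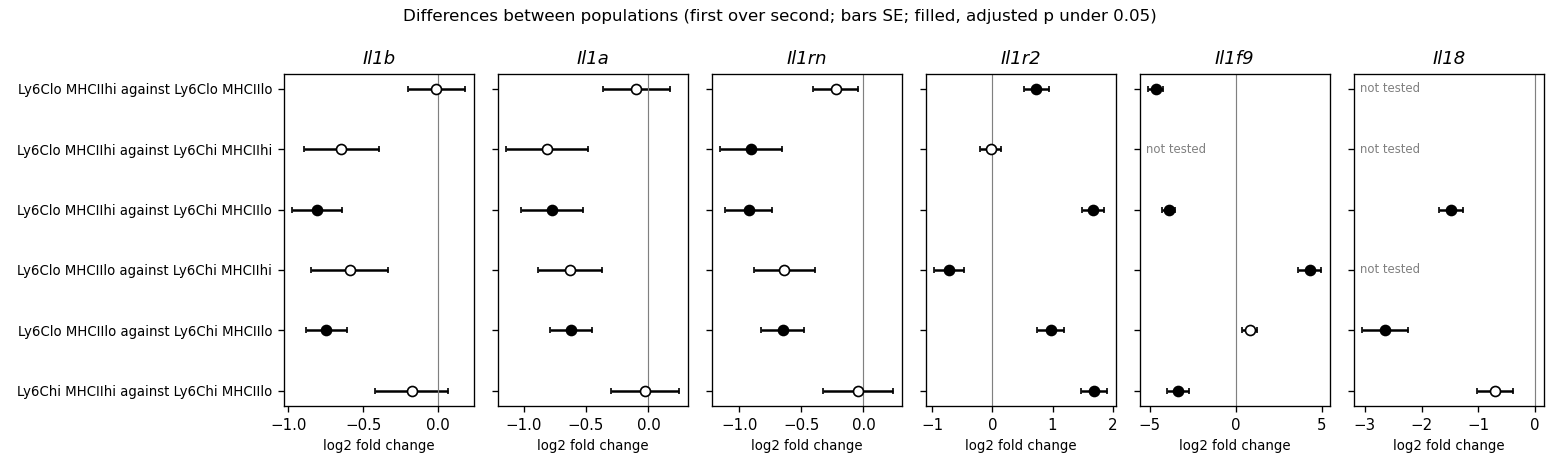
Log2 fold change of each member in 6 pairs of gates (first over second), with SE; filled points passed an adjusted p of 0.05, and the axis range differs between panels. Il1b, Il1a and Il1rn lie left of 0 in each Ly6Clo against Ly6Chi pair, Il1r2 reaches 1.69 and Il1f9 runs from -4.66 to 4.30.

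Il1f9, which encodes IL-36γ, was high in the MHCIIlo gates and near the counting limit in the MHCIIhi gates. It had 41 counts in all in the 16 Ly6Clo MHCIIhi replicates, 5 of which had none, and 8 counts in the 7 Ly6Chi MHCIIhi replicates, 2 of which had none. A count of 0 allows up to 0.383 CPM over all Ly6Clo MHCIIhi replicates and 2.24 CPM over the Ly6Chi MHCIIhi replicates (3 counts, counting error only). Its lowest, median and highest levels were 0, 4.09 and 20.9 CPM in Ly6Clo MHCIIhi, 51.6, 88.2 and 351 CPM in Ly6Clo MHCIIlo, 0, 3.94 and 49.9 CPM in Ly6Chi MHCIIhi, and 16.6, 77.7 and 180 CPM in Ly6Chi MHCIIlo. The Ly6Clo MHCIIlo replicates did not overlap either MHCIIhi gate.

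Il1f9 fell 25.2-fold in Ly6Clo MHCIIhi relative to Ly6Clo MHCIIlo (log2 fold change -4.66, SE 0.415, adjusted p = 1.16e-09) and 14.98-fold relative to Ly6Chi MHCIIlo (-3.91, SE 0.386, adjusted p = 1.33e-09). It fell 10.1-fold in Ly6Chi MHCIIhi relative to Ly6Chi MHCIIlo (-3.34, SE 0.644, adjusted p = 0.00597). Without the library rich in haemoglobin that log2 fold change was -3.92 (adjusted p = 0.000987). In Ly6Clo MHCIIlo it was 19.7-fold higher than in Ly6Chi MHCIIhi (4.30, SE 0.674, adjusted p = 0.000112), and without that library the log2 fold change was 4.90 (adjusted p = 5.32e-06). The MHCIIlo gates did not differ past the threshold, at 138 ± 111 CPM in Ly6Clo MHCIIlo and 83.8 ± 56.8 CPM in Ly6Chi MHCIIlo (0.82, SE 0.429, adjusted p = 0.142). Il1f9 passed there with no count filter (0.68, adjusted p = 0.0138). It did not pass in the remaining 7 of 8 other settings or in 16 of 16 fits without 1 replicate.

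The neutrophil list was counted in the same pairs of gates. All 12 tested neutrophil markers were lower in Ly6Clo MHCIIhi than in Ly6Clo MHCIIlo (median log2 fold change -4.56), and 10 of 11 were lower in Ly6Clo MHCIIhi than in Ly6Chi MHCIIlo (-4.78). In Ly6Clo MHCIIhi against Ly6Chi MHCIIhi 7 of 9 were lower, in Ly6Chi MHCIIhi against Ly6Chi MHCIIlo 2 of 11 were lower, and in Ly6Clo MHCIIlo against Ly6Chi MHCIIhi 5 of 12 were higher. Without the Ly6Chi MHCIIhi ctrl replicate 1, these counts were 3 of 9 lower, 11 of 12 lower and 11 of 12 higher. Of all genes, 1002 of 6122, 220 of 5183 and 1257 of 4631 then passed in either direction. With that replicate these were 873 of 5541, 136 of 4756 and 977 of 4175. Between the MHCIIlo gates 3 of 12 were higher and 3 lower in Ly6Clo MHCIIlo. In Ly6Clo MHCIIlo the highest Il1f9, 351 CPM in ko replicate 3, stood beside the highest neutrophil sum, 29950 CPM. In Ly6Chi MHCIIlo the lowest Il1f9, 16.6 CPM in ctrl replicate 1, stood beside the highest neutrophil sum there, 19990 CPM. In Ly6Chi MHCIIhi the ctrl replicate 1, with the neutrophil sum of 78900 CPM, had 49.9 CPM of Il1f9 from 3 counts, against 0 to 7.21 CPM in the other 6. The part of neutrophil RNA in the Il1f9 and Il1r2 differences was not tested.

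**Figure D3:**
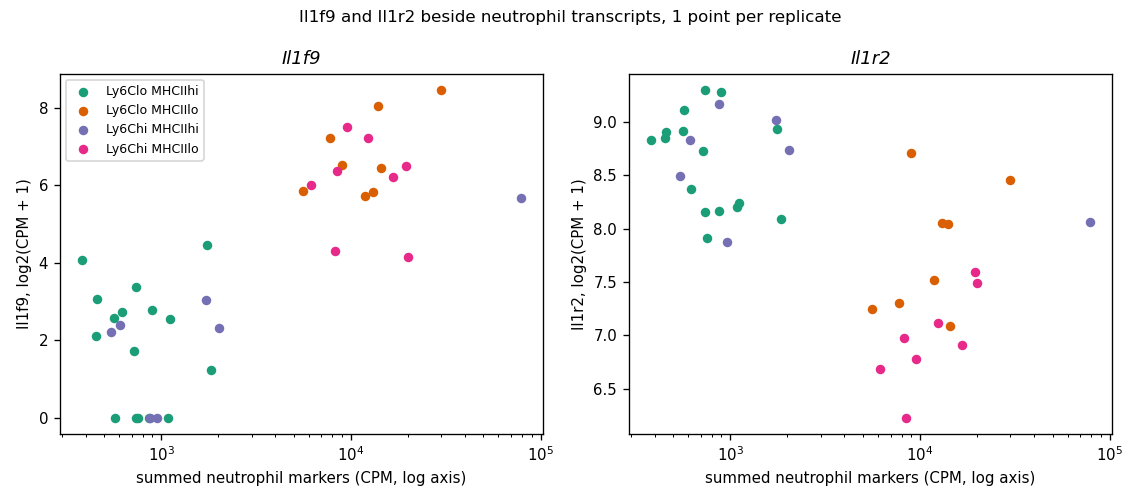
Il1f9 and Il1r2, as log2(CPM + 1), against the summed CPM of 13 neutrophil markers (log axis), with 1 point per replicate coloured by gate. The MHCIIlo gates sit at neutrophil sums of 5622 CPM and above, with Il1f9 of 16.6 CPM or more, and the point farthest right is the Ly6Chi MHCIIhi ctrl replicate 1 at 78900 CPM.

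Il18 was low in every gate and lowest in Ly6Clo MHCIIlo, with 12 counts over 8 replicates, 2 of which had none. Its lowest, median and highest levels were 8.39, 19.2 and 27.6 CPM in Ly6Clo MHCIIhi, 0, 7.95 and 14.1 CPM in Ly6Clo MHCIIlo, 0, 28.8 and 62.3 CPM in Ly6Chi MHCIIhi, and 23.0, 50.01 and 80.8 CPM in Ly6Chi MHCIIlo. No Ly6Clo MHCIIlo replicate reached the lowest Ly6Chi MHCIIlo one. Il18 fell 6.22-fold in Ly6Clo MHCIIlo (log2 fold change -2.64, SE 0.401, adjusted p = 1.16e-05) and 2.80-fold in Ly6Clo MHCIIhi (-1.49, SE 0.214, adjusted p = 1.27e-06), each relative to Ly6Chi MHCIIlo. In Ly6Chi MHCIIhi against Ly6Chi MHCIIlo the log2 difference was -0.70 (adjusted p = 0.275), and -0.63 without ctrl replicate 1 of Ly6Chi MHCIIhi (adjusted p = 0.28). With no count filter Il18 was 1.38 higher on the log2 scale in Ly6Clo MHCIIhi than in Ly6Clo MHCIIlo (adjusted p = 0.0275). Against Ly6Chi MHCIIhi, also with no count filter, Ly6Clo MHCIIlo gave -1.998 (adjusted p = 0.00352) and Ly6Clo MHCIIhi gave -0.76 (adjusted p = 0.203). Summed monocyte markers (8 genes) had medians of 1208, 1687, 4565 and 7326 CPM in Ly6Clo MHCIIhi, Ly6Clo MHCIIlo, Ly6Chi MHCIIhi and Ly6Chi MHCIIlo, and their part in the Il18 differences was not tested. Summed epithelial markers (7 of 8 listed genes) had medians of 231, 402, 353 and 355 CPM in the same gates. Their ranges overlapped, for example 65.6 to 1178 CPM in Ly6Clo MHCIIlo and 189 to 923 CPM in Ly6Chi MHCIIlo. The part of epithelial RNA in the Il18 differences was not tested either.

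Labelled ko was then compared with labelled ctrl within each gate, the question of the series. No member passed in any gate. In Ly6Clo MHCIIhi 0 of 4 tested members passed (0% of 5660 genes), in Ly6Clo MHCIIlo 0 of 5 (0.0314% of 3182), in Ly6Chi MHCIIhi 0 of 4 (0% of 3509) and in Ly6Chi MHCIIlo 0 of 6 (0.0756% of 3966). At an unadjusted p under 0.05, 296, 136, 245 and 444 genes stood below it in these gates, and 1, 1, 0 and 0 members.

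Il1r2 was the member below that unadjusted level, with opposite signs in the Ly6Clo gates. In Ly6Clo MHCIIhi its lowest, median and highest levels were 240, 298 and 630 CPM in ko and 287, 481 and 622 CPM in ctrl, so the ranges overlapped, a log2 difference of -0.44 (95% interval -0.805 to -0.0776, p = 0.0196, adjusted p = 0.888). Without ko replicate 3, the highest ko value, it was -0.62 (adjusted p = 0.331). In Ly6Clo MHCIIlo Il1r2 had 265, 419, 351 and 135 CPM in ko replicates 1 to 4, against 183, 263, 151 and 157 CPM in ctrl replicates 1 to 4. The ko values there were both the highest and the lowest, a log2 difference of 0.65 (interval 0.0223 to 1.28, p = 0.0432, adjusted p = 0.999). Whether the ko difference of a member varied over the gates was tested by the interaction of gate and genotype, and Il1r2 had the smallest p of the 6 members (p = 0.0437, adjusted p = 0.722). None of the 6 passed, where 0.0663% of 6032 genes did.

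Il1b had levels of 2976 to 6667 CPM in ko (median 3732) and 3843 to 12528 CPM in ctrl (median 4158) of Ly6Clo MHCIIhi, a log2 difference of -0.39 (95% interval -0.844 to 0.0677, adjusted p = 0.951). It was -0.076 without the ctrl replicate 3 and -0.52 without the ko replicate 3. In Ly6Clo MHCIIlo Il1b had 3935, 5204, 6228 and 3707 CPM in ko, against 3398, 6566, 3542 and 4311 CPM in ctrl, and the log2 difference was 0.099 (-0.361 to 0.56). In Ly6Chi MHCIIhi it had 9295, 8247, 8625 and 8752 CPM in ko, against 1512, 7146 and 7914 CPM in ctrl. Every ko value lay above every ctrl value, but how many of all genes separate so was not counted. The log2 difference was 0.53 (-0.487 to 1.55, p = 0.279, adjusted p = 0.821). Without the ctrl replicate 1 it was 0.12 (adjusted p = 0.978). In Ly6Chi MHCIIlo Il1b had 7755, 7636, 9255 and 7751 CPM in ko, against 8576, 7916, 9790 and 7941 CPM in ctrl, a log2 difference of -0.11 (-0.407 to 0.193).

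Il1a had log2 differences of -0.53 in Ly6Clo MHCIIhi (-1.22 to 0.167), -0.079 in Ly6Clo MHCIIlo (-0.555 to 0.397), 0.72 in Ly6Chi MHCIIhi (-0.221 to 1.66) and -0.21 in Ly6Chi MHCIIlo (-0.687 to 0.272). In Ly6Chi MHCIIhi the Il1a levels were 748, 696, 579 and 639 CPM in ko, against 66.5, 350 and 632 CPM in ctrl, and without ctrl replicate 1 the difference was 0.27 (adjusted p = 0.97). Without the ctrl replicate 3, the Il1a difference of Ly6Clo MHCIIhi was -0.15, and without the ko replicate 3 it was -0.90, with neither passing. Il1rn gave -0.19 (-0.649 to 0.277), 0.20 (-0.179 to 0.583), 0.65 (-0.319 to 1.62) and 0.11 (-0.46 to 0.689) in the same order of gates, and 0.23 in Ly6Chi MHCIIhi without the ctrl replicate 1. In Ly6Clo MHCIIhi the Il1rn difference was -0.0075 without the ctrl replicate 3 and -0.24 without the ko replicate 3. Il1r2 gave -0.29 (-0.992 to 0.415) in Ly6Chi MHCIIhi, -0.42 there without the ctrl replicate 1 (adjusted p = 0.965), and 0.063 (-0.549 to 0.675) in Ly6Chi MHCIIlo.

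For the scarce members, Il1f9 had 55.2, 90.4, 351 and 86.0 CPM in ko, against 51.6, 263, 56.7 and 147 CPM in ctrl of Ly6Clo MHCIIlo. Its log2 difference was 0.24 (-0.906 to 1.38), and -0.65 without the ko replicate 3. In Ly6Chi MHCIIlo Il1f9 had 18.7, 89.2, 63.2 and 73.7 CPM in ko, against 16.6, 147, 180 and 81.8 CPM in ctrl (-0.84, interval -1.97 to 0.29). Il18 had 74.9, 49.0, 80.8 and 51.0 CPM in ko, against 62.9, 23.0, 34.0 and 39.0 CPM in ctrl of Ly6Chi MHCIIlo (0.63, -0.0692 to 1.33, adjusted p = 0.492). These intervals leave room for differences larger than 1.5-fold for each member in at least 1 gate, so differences of that size are not excluded there at this depth and spread.

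**Figure D4:**
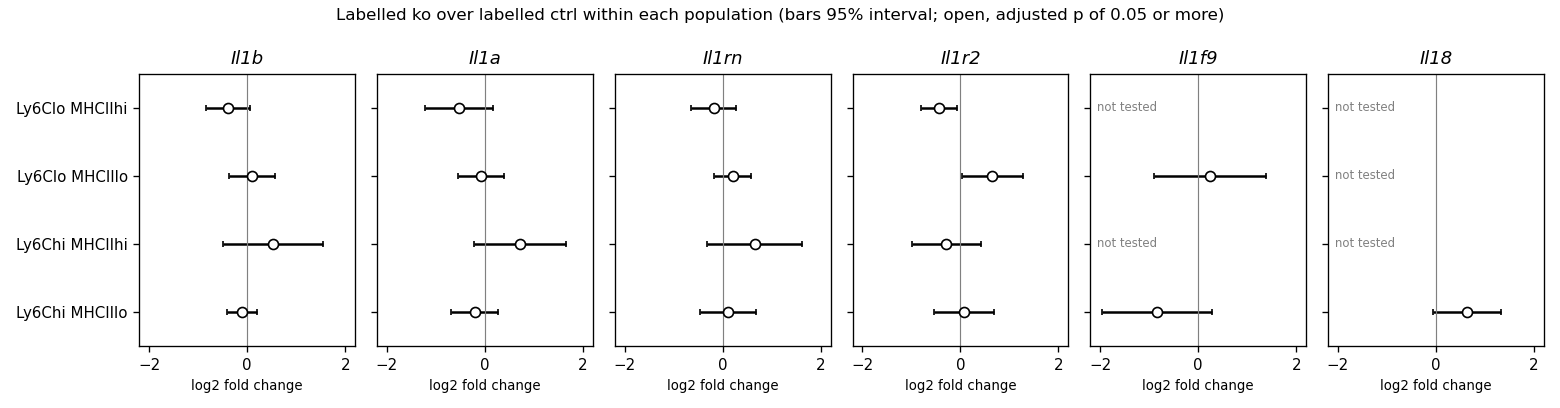
Log2 fold change of ko over ctrl for each member within each gate, with the 95% interval of the quasi-likelihood fit; all points are open because no member passed an adjusted p of 0.05. The Il1r2 interval excludes 0 in Ly6Clo MHCIIhi (-0.44) and in Ly6Clo MHCIIlo (0.65) before adjustment.

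Library barcodes could not be told apart from genotype in 3 of the 4 gates, where every ctrl library had an A/T-rich barcode and every ko library a G/C-rich one. Within 5 Ly6Clo MHCIIhi replicates with a library of each class, G/C-rich against A/T-rich gave log2 differences of -0.025 for Il1b (SE 0.0535), 0.072 for Il1a (SE 0.122), 0.021 for Il1r2 (SE 0.109) and -0.22 for Il1rn (SE 0.0781, p = 0.00819, adjusted p = 0.227). None of these 4 passed, where 1.80% of 4945 genes did. Over the 8 replicates with a pair of libraries, the median fold between the pair was 1.04 for Il1b, 1.15 for Il1rn, 1.17 for Il1r2, 1.19 for Il1a and 1.88 for Il18. Il1f9 had counts in both libraries in 3 of these replicates (median fold 3.14) and none in at least 1 library in the other 5.

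Across the 16 Ly6Clo MHCIIhi replicates, Il1b, Il1a and Il1rn varied together after the genotype means were removed. Of 15 relations (pairs of 5 members, and each with the neutrophil sum), 3 passed an adjusted p of 0.05 by permutation of log2(CPM + 1) with 100000 resamples, two-sided. Il1b with Il1rn had r = 0.799 and rho = 0.871 (permutation p = 0.0002 and 3e-05, adjusted 0.0015 and 0.00045). Without the ctrl and ko replicates 3, the 2 farthest from the Il1b median, r was 0.802. Il1a with Il1b had r = 0.921 and rho = 0.824 (permutation p = 4e-05 and 0.00023, adjusted 0.0006 and 0.00172), and r was 0.72 without those replicates. Il1a with Il1rn had r = 0.685 and rho = 0.753 (permutation p = 0.00336 and 0.00111, adjusted 0.0168 and 0.00555), and r was 0.536 without them (permutation p = 0.0481).

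Within replicate numbers 1 to 4 and 5 to 8 (8 replicates each), r was 0.975 and 0.685 for Il1b with Il1rn, 0.945 and 0.888 for Il1a with Il1b, and 0.929 and 0.797 for Il1a with Il1rn. The permutation p of 0.685 was 0.0662, and the other 5 were under 0.05. Il1r2 had r = 0.33 with Il1b, 0.372 with Il1a and 0.092 with Il1rn, and none of its relations passed over the 16 replicates. No member's relation with the neutrophil sum passed over the 16 replicates, with r from -0.185 to 0.387. In numbers 5 to 8, Il1r2 with the neutrophil sum had r = -0.883 (permutation p = 0.0064, not adjusted), and in numbers 1 to 4 r = -0.151.

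**Figure D5:**
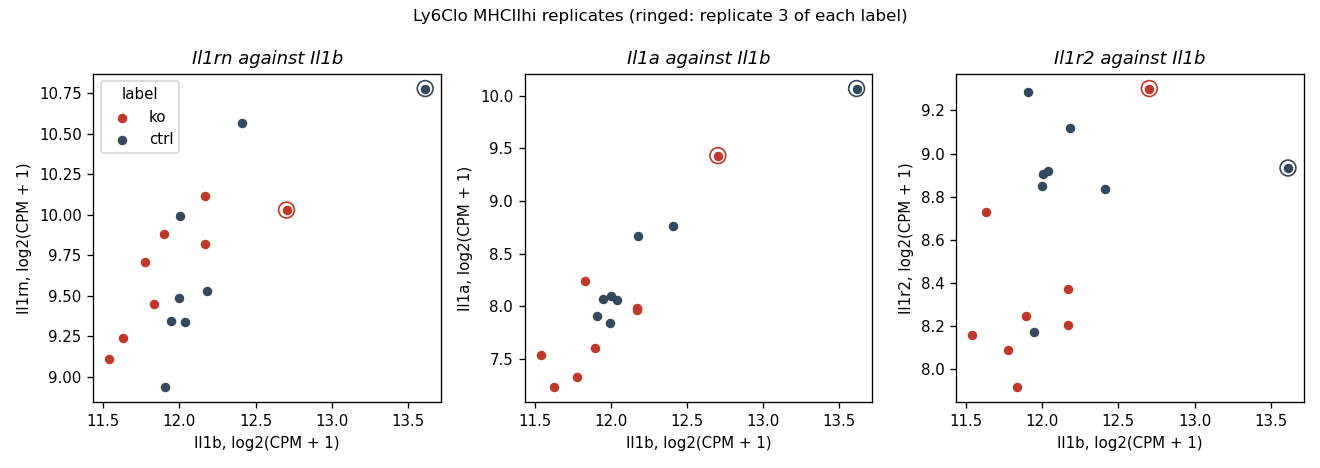
Il1rn, Il1a and Il1r2 against Il1b in the 16 Ly6Clo MHCIIhi replicates, all as log2(CPM + 1), with ko and ctrl coloured and replicate 3 of each ringed. Il1rn (r = 0.799) and Il1a (r = 0.921) rise with Il1b, and Il1r2 (r = 0.33) does not pass the test.

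The replicates numbered 3 of Ly6Clo MHCIIhi held the highest Il1b and Il1a of their groups. Il1b was at 6667 CPM in ko, against a next highest ko value of 4612 CPM, and at 12528 CPM in ctrl, against a next highest ctrl value of 5445 CPM. The summed CPM of the 12 IL-1-induced genes with a row (13 listed, among them Cxcl2, Ptgs2 and Nfkbia) was 15960 in this ko replicate and 35590 in this ctrl replicate. It was 6390 to 12300 in the other 7 ko replicates and 6716 to 15150 in the other 7 ctrl replicates. Macrophage markers summed to 32430 CPM in ko replicate 3 and to 18720 CPM in ctrl replicate 3, the lowest of their groups. Monocyte markers summed to 1696 and 1791 CPM in these replicates, the highest of their groups, with next values of 1648 and 1775 CPM. Neutrophil markers summed to 1756 CPM in ctrl replicate 3, the highest of ctrl, and to 737 CPM in ko replicate 3, where ko ran from 621 to 1844 CPM. The part of these cell types in the high Il1b and Il1a was not tested.

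Other genes of the pathway were counted from listed sets, in the same fits. Their counts are read against the shares of all genes given with the pairs of gates. Of 7 receptor genes, only Il1rap, the shared accessory chain of the IL-1 receptor, passed the count filter in any gate comparison, and it was lower in Ly6Clo MHCIIhi than in Ly6Chi MHCIIlo (6.22 and 27.6 CPM, log2 fold change -2.43, adjusted p = 6.56e-07). Il1r1, the signalling receptor, averaged 2.96 to 7.60 CPM over the gates. Il18bp, which encodes a soluble decoy of IL-18, averaged 85.1, 38.2, 28.3 and 13.04 CPM in Ly6Clo MHCIIhi, Ly6Clo MHCIIlo, Ly6Chi MHCIIhi and Ly6Chi MHCIIlo. It was higher in Ly6Clo MHCIIhi than in each other gate (log2 fold changes 1.00, 1.59 and 2.69, adjusted p = 0.0202, 0.00259 and 5.54e-08) and higher in Ly6Clo MHCIIlo than in Ly6Chi MHCIIlo (1.69, adjusted p = 0.0135).

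Of 25 inflammasome and processing genes, 24 had a row. In Ly6Clo MHCIIlo against Ly6Chi MHCIIlo, 2 rose and 8 fell of 13 tested (median log2 fold change -0.60, against 0.051 over all genes). Mefv, which encodes the sensor pyrin, fell by 1.94, and Prtn3, a granule protease, fell by 4.97. Capn2, a calpain, fell by 1.14, while P2rx7, the ATP receptor upstream of NLRP3, rose by 1.92. Of 15 tested in Ly6Clo MHCIIhi against Ly6Chi MHCIIlo, 2 rose and 8 fell (median -0.40, against 0.0057 over all genes). Nlrp3 itself was lower there, at 193 CPM in Ly6Clo MHCIIhi and 353 CPM in Ly6Chi MHCIIlo (-0.86, SE 0.188, adjusted p = 0.000441), and Casp1, which cuts IL-1β and IL-18, was at 14.7 and 33.5 CPM (-0.82, adjusted p = 0.0248). Between the Ly6Chi gates 0 of 13 passed. In the remaining pairs, 2 rose and 1 fell of 12 in Ly6Clo MHCIIhi against Ly6Clo MHCIIlo, 2 and 2 of 14 in Ly6Clo MHCIIhi against Ly6Chi MHCIIhi, and 1 and 2 of 12 in Ly6Clo MHCIIlo against Ly6Chi MHCIIhi. Without the Ly6Chi MHCIIhi ctrl replicate 1, 0 rose and 2 fell of 15 between the Ly6Chi gates, 2 and 4 of 14 in Ly6Clo MHCIIhi against Ly6Chi MHCIIhi, and 3 and 5 of 12 in Ly6Clo MHCIIlo against it. The counts of all genes passing in these fits are those given with the neutrophil list.

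Of 13 signalling genes, 1 rose and 3 fell of 8 tested in Ly6Clo MHCIIlo against Ly6Chi MHCIIlo (median log2 fold change -0.35, against 0.051 over all genes). In Ly6Clo MHCIIhi against Ly6Chi MHCIIlo, 0 rose and 6 fell of 9 (median -0.59, against 0.0057). Of all genes, 37.4% passed in the first pair, 18.2% lower, and 42.3% in the second, 21% lower. Myd88, the receptor's adaptor, averaged 129 CPM in Ly6Clo MHCIIhi and 255 CPM in Ly6Chi MHCIIlo (-0.90, adjusted p = 6.8e-06). Irak3, an inhibitor of the pathway, averaged 38.6 and 106 CPM there (-1.55, adjusted p = 3.42e-05). At most 2 signalling genes passed in any of the other 4 pairs.

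Most genes listed as IL-1-induced fell in the Ly6Clo gates relative to Ly6Chi MHCIIlo. In Ly6Clo MHCIIlo 1 rose and 8 fell of 11 (median -0.71), and in Ly6Clo MHCIIhi 1 rose and 7 fell of 11 (median -0.84). The part of IL-1 signalling in these differences was not tested. Cxcl2, a neutrophil chemokine, averaged 5751 CPM in Ly6Clo MHCIIhi, 5945 CPM in Ly6Clo MHCIIlo, 9956 CPM in Ly6Chi MHCIIhi and 10980 CPM in Ly6Chi MHCIIlo. Nfkbia, the NF-κB inhibitor that NF-κB itself raises, averaged 2249, 1882, 3563 and 4695 CPM in these gates. Cxcl1 went the other way in both comparisons (0.63, adjusted p = 0.00389, and 0.88, adjusted p = 0.0449). Lcn2 is in this list and in the neutrophil list. Against Ly6Chi MHCIIhi, 0 rose and 3 fell of 11 in Ly6Clo MHCIIhi and 0 rose and 5 fell of 11 in Ly6Clo MHCIIlo. The remaining pairs had 1 and 1 of 11 in Ly6Clo MHCIIhi against Ly6Clo MHCIIlo, and 0 of 11 between the Ly6Chi gates. Without the Ly6Chi MHCIIhi ctrl replicate 1, 0 rose and 6 fell of 11 in Ly6Clo MHCIIhi against Ly6Chi MHCIIhi, 1 and 7 of 11 in Ly6Clo MHCIIlo against it, and 0 and 1 of 11 between the Ly6Chi gates. Without both replicates numbered 3, 0 rose and 10 fell of 11 in Ly6Clo MHCIIhi against Ly6Chi MHCIIlo, 0 and 9 against Ly6Chi MHCIIhi, and 1 and 3 against Ly6Clo MHCIIlo. Of all genes, 2549 of 5933, 1010 of 5437 and 1316 of 4723 passed in those last 3 fits. In ko against ctrl, 0 genes of these 5 lists passed in any gate. Il18bp averaged 111 CPM in ko and 58.7 CPM in ctrl of Ly6Clo MHCIIhi, with 8 of 8 ko replicates above the ctrl mean (log2 fold change 0.69, p = 0.00643, adjusted p = 0.888). How many of all genes lie so was not counted. All 10 tested IL-1-induced genes were lower in ko of Ly6Clo MHCIIhi (median -0.494, from -1.24 to -0.0891, against -0.00961 over all genes), and none passed. The share of all genes lower in ko was not counted. That gate holds the ctrl replicate 3, whose sum of these genes was the highest, and this list was not counted without that replicate. Their medians were -0.138, -0.00594 and -0.341 in Ly6Clo MHCIIlo, Ly6Chi MHCIIhi and Ly6Chi MHCIIlo.

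Genes whose group means were most like a member's were named by Pearson's r of mean log2(CPM + 1) over the 8 groups, among 3971 genes, as a description. Il1b was closest to Pde4b (0.991), a cAMP phosphodiesterase, to Mcl1 (0.98), an anti-apoptotic factor, and to Cebpb (0.977), a transcription factor. Il1rn was closest to Mcl1 (0.976), Inhba (0.974) and Pde4b (0.968), and Il1a to Ier3 (0.964), Pde4b (0.956) and Rhoq (0.954). Il1f9 was closest to Mbnl2 (0.979), to Csf3r (0.975), the G-CSF receptor of neutrophils, and to Tnrc6b (0.975). Il18 was closest to Atp5h (0.996), B9d2 (0.984) and Crip1 (0.977). Among the genes closest to Il1r2 were Cabin1 (0.94) and Srsf6 (0.923).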

How the data were processed

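The 48 libraries measured poly(A) RNA by bulk 3′ sequencing, per the labels' protocols. Values are whole-number read or tag counts, 1 row a gene and 1 column a library, as deposited by the authors without normalization. The submitters' processing notes list GRCm38 along with R 3.4.4 and DESeq2 1.18.1. No source used here names the aligner or counter or says whether molecular identifiers were used. Library totals ranged from 8409 to 500687 counts. The 1 library under 28006.25 counts (0.1 of the median) was left out, the libraries of a replicate were summed, and a row named z (127 counts, 0.000967%) was dropped. Floors cover counting error only.

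Levels are CPM with TMM scaling (edgeR 4.0.16, R 4.3.3). Genes were kept by filterByExpr (minimum count 10, minimum total 15). Differences were tested over all kept genes with edgeR's quasi-likelihood F test and Benjamini-Hochberg adjustment, threshold 0.05, and tested on simulated data first. Intervals are 95% from the same fit. Populations were compared with genotype as a covariate. A barcode with 4 or more of 6 bases A or T counts as A/T-rich. Alternatives included DESeq2 1.42.0 and its size factors, no count filter, joint fits, a replicate block, single libraries and leaving out each replicate. Leaving out both replicates numbered 3 of Ly6Clo MHCIIhi, and counting lists without doubted libraries, were chosen after seeing the data.

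The members and lists were chosen with earlier results of these data known. Up to 4 genes past the threshold were named per list and comparison, by smallest p. Nlrp3, Casp1, Il1r1, Cxcl1, Lcn2, and Il18bp in ko against ctrl, were named for their role or after their values were seen. Promoter sequences are from RefSeq, and all 6 members matched; coordinates are from GENCODE M21. Of the genes most like a member, 1 among those most like Il1r2 is not reported here.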

Additional observations from a re-analysis of the deposited data

Results flagged for a closer look

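A replicate far from the rest of its group was found in 8 of 42 groups of 4 to 10 replicates. The rule was the gap to its nearest neighbour over the range of the group, and chance gives about 1 in 20 for a single group. Each group is 1 member in 1 gate and genotype, so the same replicates recur and the 42 are not independent. The 8 are therefore not a measured excess over chance. In Ly6Clo MHCIIhi, ko replicate 3 stood out in Il1a (690 CPM), Il1b (6667 CPM) and Il1r2 (630 CPM), and ctrl replicate 3 in Il1a (1073 CPM) and Il1b (12528 CPM). In Ly6Clo MHCIIlo, ko replicate 3 stood out in Il1f9 (351 CPM). In Ly6Chi MHCIIlo, ko replicate 3 was high in Il1b (9255 CPM) and ctrl replicate 1 low in Il1rn (1063 CPM).

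The library left out for its depth, Ly6Chi MHCIIhi ctrl replicate 2 with 8409 counts, held 64 counts of Il1b and 8 counts of Il1rn, above the limit of 3 counts that a count of 0 allows.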

How the results depend on the processing

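The counts of all genes called for ko against ctrl depended on the fit. They are given for Ly6Clo MHCIIhi, Ly6Clo MHCIIlo, Ly6Chi MHCIIhi and Ly6Chi MHCIIlo in that order where all 4 moved. With no count filter they were 57, 24, about 1.1e+02 and 61. With all groups in one fit and each library a sample they were 2, 0, 65 and 0. Adding barcode class gave 2, 21 and 0 in Ly6Clo MHCIIhi, Ly6Chi MHCIIhi and Ly6Chi MHCIIlo. All groups in one fit gave 2, 0 and 36 in Ly6Clo MHCIIhi, Ly6Clo MHCIIlo and Ly6Chi MHCIIhi. DESeq2 gave 2, 4 and 14 in Ly6Clo MHCIIlo, Ly6Chi MHCIIhi and Ly6Chi MHCIIlo. Leaving out each replicate gave 0 to 6, 0 to 28 and 0 to 8 in those 3 gates; the highest came without ctrl replicate 1, ctrl replicate 4 and ctrl replicate 3, and 4 of 8 left-out replicates of Ly6Chi MHCIIlo and 3 of 8 of Ly6Clo MHCIIlo gave 0. Ly6Chi MHCIIhi against Ly6Chi MHCIIlo had 303 with no filter, 326 and 342 with libraries as samples without and with barcode class, 304 in one fit, and 71 (without Ly6Chi MHCIIhi ctrl replicate 4) to 220 (without ctrl replicate 1) leaving out each replicate. The interaction had 112, 1, 12 and 12 with no filter, all libraries kept, and libraries as samples without and with barcode class. The barcode comparison had 55 with no replicate block and 53 to 98 leaving out each replicate.

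Replicate numbers are not stated to pair samples, and no comparison had every same-numbered pair correlate above 0.1. Each replicate correlated best with its own number in 7 of 7 pairs of Ly6Chi MHCIIhi with Ly6Chi MHCIIlo and 7 of 7 of Ly6Clo MHCIIlo with Ly6Chi MHCIIhi, a hint from the data only. A replicate block changed the counts to 4 for ko against ctrl in Ly6Clo MHCIIlo, 445 for Ly6Clo MHCIIhi against Ly6Chi MHCIIhi and 712 for Ly6Clo MHCIIhi against Ly6Clo MHCIIlo.

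No member's ko against ctrl value passed under any of 160 member values from other settings or 180 from leaving out a replicate. Between gates, calls of members were lost in 2 of 286 values from other settings and 10 of 617 from leaving out a replicate, all named with the results. Members that changed sign had not passed. With barcode class added, the ko values of Il1a and Il1f9 in Ly6Clo MHCIIlo were 0.43 and -0.79, of Il1r2 in Ly6Chi MHCIIhi 0.024, and of Il1a and Il1b in Ly6Chi MHCIIlo 0.34 and 0.082. Leaving out each replicate, ko values ran from -0.34 to 0.099 (Il1a), -0.074 to 0.35 (Il1b) and -0.65 to 0.78 (Il1f9) in Ly6Clo MHCIIlo. They ran from -0.26 to 0.29 (Il1rn) and -0.16 to 0.29 (Il1r2) in Ly6Chi MHCIIlo. In Ly6Clo MHCIIhi against Ly6Chi MHCIIhi, Il1r2 was 0.084 with no filter, 0.029 with all libraries kept, 0.0057 and 0.0040 with libraries as samples without and with barcode class, 0.0015 in one fit, 0.030 with the replicate block, and -0.13 to 0.084 leaving out each replicate. In Ly6Clo MHCIIhi against Ly6Clo MHCIIlo, Il1a was 0.026 with the block and -0.27 to 0.057 leaving out each replicate. Il1b was 0.073 with no filter, 0.016 in one fit, 0.0064 with library 1 only, and -0.15 to 0.11 leaving out each replicate. In Ly6Chi MHCIIhi against Ly6Chi MHCIIlo, leaving out each replicate gave -0.16 to 0.19 (Il1a), -0.26 to 0.026 (Il1b) and -0.31 to 0.15 (Il1rn). In the barcode comparison it gave -0.059 to 0.17 (Il1a) and -0.083 to 0.12 (Il1r2). The cause of these changes was not tested. Depth limits Il1f9 and Il18 most, with 437 and 322 counts in the whole table.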
